A study of Homo sapiens with 4 samples.

Results

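Open chromatin in gene deserts, the stretches of the genome that hold no protein-coding gene, was described in HCT116 cells with and without added FOXD2. HCT116 is an established human colorectal carcinoma line, and FOXD2 is a forkhead transcription factor. Accessible DNA, cut and tagged by the Tn5 transposase in ATAC-seq, had been read in 2 libraries of cells carrying pSin lentivirus with the full-length FOXD2 coding sequence and in 2 libraries of cells carrying the empty pSin vector, called control here. All 4 libraries share the lentiviral vector, the puromycin selection and the growth in puromycin, and the labels do not say whether the cells were clones. Intervals of the 4 peak lists on chromosomes 1 to 22 and X were joined into regions wherever they overlapped by 1 bp or more, and a library holds a region if any of its intervals entered it. Desert regions were those more than 100 kb from the body of each of the 19821 RefSeq protein-coding genes used. There were 12844 of them among 122856 regions (10.5%, 95% Clopper-Pearson interval 10.3 to 10.6). Of the 110012 other regions, called the rest, 39249 lay outside genes but within 100 kb of one and 70763 overlapped a protein-coding gene. No measured peak value entered this choice.

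Gene deserts are known to hold enhancers, short stretches of open DNA bound by transcription factors that act on promoters a long way off. The deserts beside MYC and SOX9 are well-known cases in colon and cartilage, and the desert beside MYC carries inherited variants linked to colorectal cancer. Deserts also hold long non-coding RNA (lncRNA) genes, microRNA (miRNA) genes, pseudogenes and the segments that lymphocytes join to make antigen receptors. A miRNA represses messages that pair with its seed, the stretch at its 5′ side, and an open site beside its gene is one place where its transcription can be controlled.

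Of 185 miRNA genes lying wholly in deserts, 21 had an open region within 1000 bp, and the mature miRNAs of 5 of these are printed because they show both patterns met here, regions found in every library and regions found only in the controls. The sequences are from RefSeq, build GRCh38.p14, written 5′ to 3′, with the seed (bases 2 to 8) in capitals. The 7 mature sequences had 7 different seeds. The first 4 belong to genes with a region in all 4 libraries, and the last 3 to genes with a region in the controls only.
hsa-miR-148a-3p: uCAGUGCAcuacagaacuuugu
hsa-miR-138-5p: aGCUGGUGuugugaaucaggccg
hsa-miR-138-1-3p: gCUACUUCacaacaccagggcc
hsa-miR-587: uUUCCAUAggugaugagucac
hsa-miR-29a-3p: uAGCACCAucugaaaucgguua
hsa-miR-29a-5p: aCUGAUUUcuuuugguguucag
hsa-miR-548x-3p: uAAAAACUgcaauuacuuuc

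The promoters of 4 lncRNA genes, from 250 bases before to 50 bases after the annotated start, are printed for the same reason, also from RefSeq GRCh38.p14 and in the direction of transcription. The window of MANCR (chr10:4678021-4678320, minus strand) and that of LINC02273 (chr4:152100503-152100802, plus strand) overlapped a region found in both FOXD2 libraries and neither control. That of LINC01626 (chr6:71420777-71421076, plus strand) overlapped a region found in both controls and neither FOXD2 library. That of LINC00460 (chr13:106376314-106376613, plus strand) overlapped a region of all 4 libraries. Capitals mark exact matches, on either strand, to TGTTTAC, a core forkhead motif, and TGACTCA, the AP-1 motif, a pair of motifs that share no bases here.
MANCR promoter: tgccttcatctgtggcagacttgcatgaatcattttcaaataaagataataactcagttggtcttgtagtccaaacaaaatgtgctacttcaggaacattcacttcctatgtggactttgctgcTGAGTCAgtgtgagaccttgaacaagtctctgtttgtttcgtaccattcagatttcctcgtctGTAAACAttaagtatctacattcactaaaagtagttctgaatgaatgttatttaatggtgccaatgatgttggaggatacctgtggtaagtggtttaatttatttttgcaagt
LINC02273 promoter: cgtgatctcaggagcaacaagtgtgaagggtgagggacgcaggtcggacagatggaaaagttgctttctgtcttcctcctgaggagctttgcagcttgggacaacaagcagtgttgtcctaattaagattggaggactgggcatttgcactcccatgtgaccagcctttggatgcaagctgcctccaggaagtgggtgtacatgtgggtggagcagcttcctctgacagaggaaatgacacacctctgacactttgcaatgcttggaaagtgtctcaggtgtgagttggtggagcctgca
LINC01626 promoter: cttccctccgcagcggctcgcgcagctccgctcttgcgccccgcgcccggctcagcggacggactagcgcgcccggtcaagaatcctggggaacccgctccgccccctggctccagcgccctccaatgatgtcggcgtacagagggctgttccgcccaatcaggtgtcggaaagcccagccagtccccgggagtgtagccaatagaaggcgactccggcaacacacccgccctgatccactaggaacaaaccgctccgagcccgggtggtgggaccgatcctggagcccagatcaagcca
LINC00460 promoter: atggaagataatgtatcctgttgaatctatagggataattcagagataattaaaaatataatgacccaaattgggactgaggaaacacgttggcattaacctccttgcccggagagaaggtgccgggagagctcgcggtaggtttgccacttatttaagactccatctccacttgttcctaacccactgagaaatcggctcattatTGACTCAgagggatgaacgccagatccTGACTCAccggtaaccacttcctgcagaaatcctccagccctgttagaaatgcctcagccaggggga

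The lists held 82739 and 64675 intervals in FOXD2 replicates 1 and 2, against 77752 and 72796 in control replicates 1 and 2. The labels name no separate cultures behind the libraries of a group, so their spread may be technical only. Read depth is unknown, and the readout is whether an interval was called. As a check of the colon label, 8 of 10 colon epithelium markers had a peak within 1000 bp of a gene end in all 4 libraries, with CDH17 at none. Markers of other cell types had such a peak in all 4 libraries for 1 of 5 endothelial genes and 3 of 5 fibroblast genes. The leukocyte gene SPI1 also had one in all 4 libraries, the endothelial gene CDH5 had one in both FOXD2 libraries only, and the leukocyte gene CD3E had one in both controls only. PTPRC, CD14, PECAM1, VWF, COL3A1 and DCN had none.

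Desert regions were sparse and unevenly placed. Deserts between protein-coding genes numbered 1639 and spanned 875 Mb, 29.7% of the 2945 Mb between the first and last such gene of each chromosome, with assembly gaps and centromeres not taken out. They held 14.5 regions per Mb, against 53.1 per Mb in the rest of that span, and 2.76 against 18.1 per Mb of the regions found in all 4 libraries. Counting also the 36 open stretches at chromosome ends, 1251 of 1675 deserts had a region and 424 had none. The 175 deserts with at least 20 regions held 6018 members, 46.9% of them. The median distance to the nearest protein-coding gene was 202.3 kb, with quartiles of 138.5 and 339.9 kb. The farthest region (chr4:33470918-33471146) lay 2324 kb out, between PCDH7 and ARAP2, and was called in control replicate 1 alone.

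By chromosome, the most desert regions lay on chromosome 2, with 1435, followed by chromosome 8 with 1116, chromosome 4 with 1111 and chromosome 6 with 1010. The fewest lay on chromosome 19, with 27, and chromosome 21, with 92. Desert regions made up 19.2% of all regions of chromosome 4 and 0.525% of those of chromosome 19, which is rich in genes. Chromosome 22 had the densest deserts, with 43.7 regions per Mb, and chromosome 8 came next with 24.1. Chromosome X, with 4.13 per Mb, and chromosome 19, with 4.27, had the thinnest. On chromosome 22, 82 of 221 desert regions lay in 1 desert, between TAFA5 and BRD1, and 51 of those 82 were in a single library. Copy number was not taken into account.

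**Figure D1:**
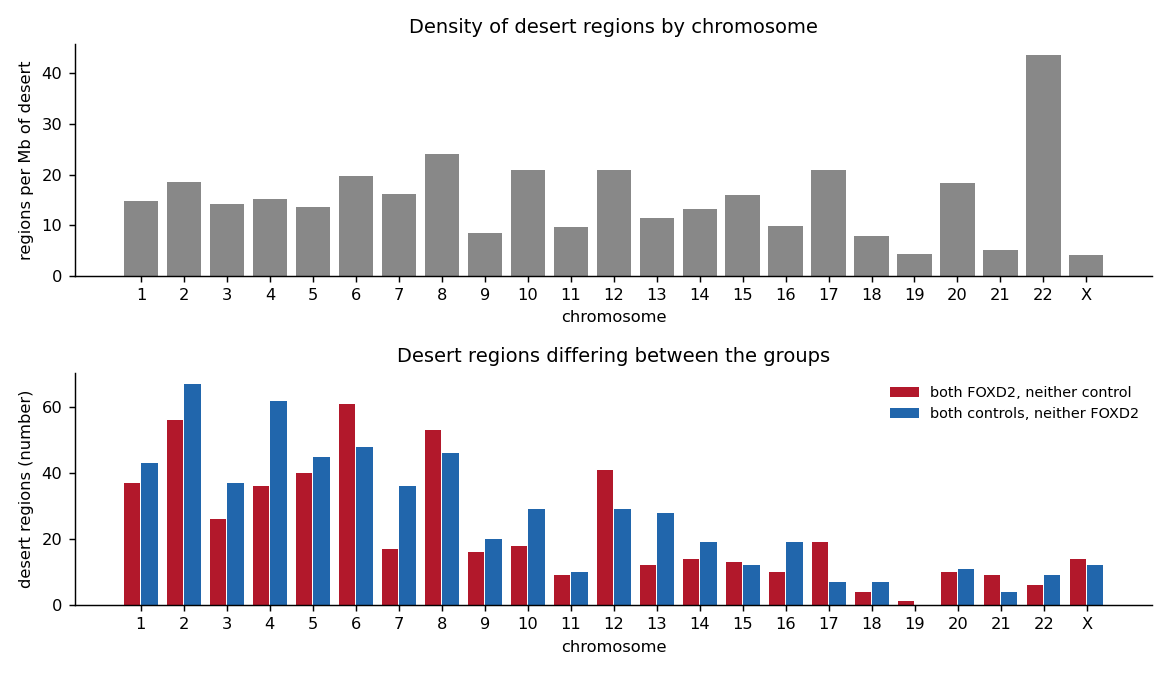
Desert regions by chromosome. Upper bars give regions per Mb of desert between protein-coding genes (vertical axis) for each chromosome, highest on chromosome 22 (43.7) and lowest on X (4.13). Lower bars give the number of desert regions present in both FOXD2 libraries and neither control (red) and in both controls and neither FOXD2 library (blue), for example 19 and 7 on chromosome 17 and 36 and 62 on chromosome 4.

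The deserts with the most regions flanked genes of varied roles. First came the desert between PTPRU, a receptor tyrosine phosphatase gene, and MATN1, a cartilage matrix gene, on chromosome 1 (chr1:29426801-30611276), with 97 regions. Of these, 54 and 39 were present in FOXD2 replicates 1 and 2, against 42 and 42 in control replicates 1 and 2. The desert between HS6ST1 and RAB6C on chromosome 2 had 93 regions, but 5 of them were found in all 4 libraries and 67 in a single one. The desert between MKI67, the gene of the proliferation marker Ki-67, and the DNA repair gene MGMT had 87, with 6 in all 4 libraries and 65 in a single one.

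Other deserts with many regions kept more of them across libraries. Between MYC and GSDMC 19 of 83 regions were in all 4 libraries, and between TRIB1, a pseudokinase gene, and LRATD2 27 of 71 were. The remaining deserts among the first 10 lay between TAFA5 and BRD1 (82 regions), AGA and TENM3 (75), TRIML1 and FRG1 (71), and VRK1 and the T cell factor gene BCL11B (66), and beyond TMEM121 at the end of chromosome 14 (65). The last holds the immunoglobulin heavy chain segments. The desert between SOX9, a transcription factor gene of cartilage and intestinal crypts, and SLC39A11 was the densest of the deserts named here, with 50 regions in 0.320 Mb.

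Within every library, desert intervals were narrower and weaker than the other intervals. Their median width was 307 and 305 bp in FOXD2 replicates 1 and 2 and 310 and 296 bp in control replicates 1 and 2, while the medians of the rest were 368, 374, 378 and 363 bp in the same order. The median −log10 q that the authors' peak caller gave was 7.54 and 8.36 for desert intervals in the FOXD2 libraries and 8.11 and 7.96 in the controls. For the rest it was 10.4 and 11.3 in the FOXD2 libraries and 11.8 and 12.4 in the controls. The 4 libraries agree in direction, and deserts and the rest did not overlap in either measure.

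The desert minus rest difference averaged −66.2 bp in width (SD 3.59, n = 4 libraries) and −3.46 in −log10 q (SD 0.741, n = 4). The median fold enrichment averaged 5.41 in deserts against 5.60 elsewhere, a difference of −0.191 on the authors' ratio scale. The share of intervals that overlapped one in the other library of the group was 60.5% for deserts and 73.6% for the rest, averaged over libraries. Each of these 4 measures was lower in deserts in 4 of 4 libraries, and the exact two-sided sign-flip permutation test gave p = 0.13 for each (also 0.13 after Benjamini-Hochberg adjustment over 4 tests), the smallest p that 4 libraries allow. In the strongest of 5 equal groups of a list, cut by −log10 q, lay 6.55% and 5.97% of the desert intervals of the FOXD2 libraries, and 6.08% and 6.01% of those of the controls.

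Between the groups, desert intervals made up 9.15% and 7.77% of the lists of FOXD2 replicates 1 and 2, against 8.99% and 8.66% of those of control replicates 1 and 2. The FOXD2 libraries were the highest and the lowest of the 4, so the groups overlapped, and the share followed the length of the list. The FOXD2 minus control difference was −0.365 percentage points (8.46 against 8.82%, SD 0.971 and 0.230, n = 2 each, exact two-sided permutation p = 1, where 0.33 is the smallest possible). With all lists shortened to the length of the shortest, the shares were 8.03% and 7.77% with FOXD2 and 7.95% and 8.02% in the controls. The median fold enrichment of desert intervals was 5.19 and 5.32 with FOXD2 and 5.59 and 5.52 in the controls, with no overlap between groups (difference −0.300, exact permutation p = 0.33, the smallest possible). The other intervals were ordered alike, with 5.34 and 5.53 with FOXD2 and 5.71 and 5.82 in the controls. Over the 5 group comparisons made on desert intervals, which also took in their number, width and −log10 q, every adjusted p by the exact permutation test was 1.

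**Figure D2:**
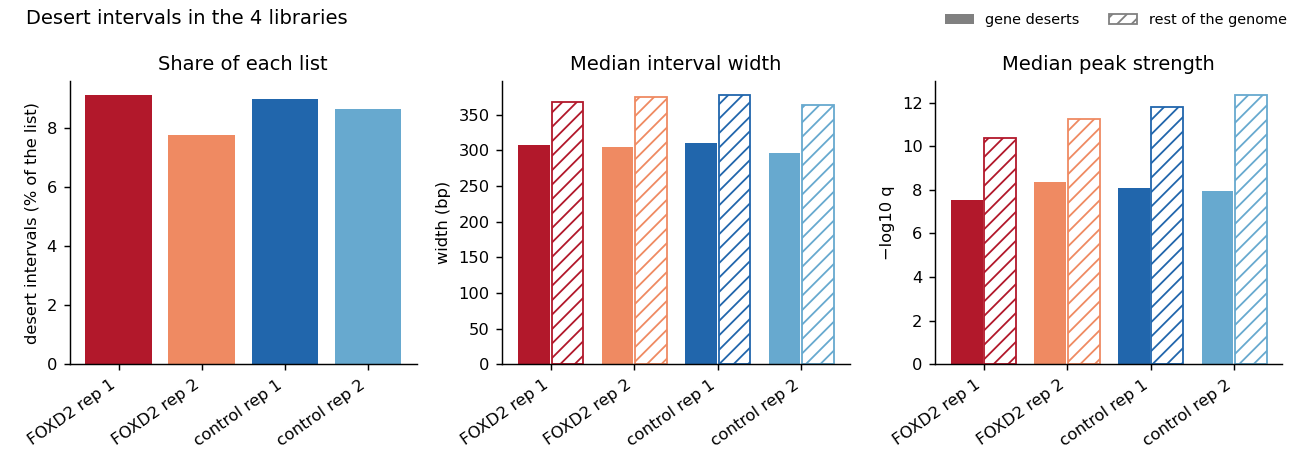
Desert intervals in each library. The left panel gives desert intervals as a percentage of the list, between 7.77 and 9.15%, and the others give the median width in bp and the median −log10 q of desert intervals (filled bars) beside all other intervals (hatched bars), lower for deserts in each of the 4 libraries. FOXD2 libraries are red and orange, controls blue.

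Desert regions were shared among libraries less often than other regions. A peak in all 4 libraries was found for 2444 desert regions (19.03%, 95% interval 18.4 to 19.7), against 34.1% of the rest (33.8 to 34.4). Another 1419 were in 3 libraries, 2347 in 2 and 6634 in a single one, so 51.7% of desert regions had been called once, against 39.5% of the rest. Regions outside genes but within 100 kb stood between, with 30.8% in all 4 libraries, and regions overlapping genes had 35.9%. FOXD2 replicates 1 and 2 alone held 2370 and 918 desert regions, and control replicates 1 and 2 alone held 1926 and 1420. Intervals on these shares cover counting error only, since regions are not replicates of a condition.

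The lower sharing was also seen within each of the 5 groups of a list cut by −log10 q. Strength was not matched further within a group. In these 5 groups, desert intervals belonged to a region of all 4 libraries less often than the rest in all 20 combinations of library and group, with desert minus rest differences from −7.94 to −0.588 percentage points. In the middle group the shares were 37.9% and 63.1% for deserts in FOXD2 replicates 1 and 2, against 44.2% and 68.0% for the rest. In control replicates 1 and 2 they were 42.4% and 51.6% for deserts, against 48.8% and 57.8% for the rest. In the strongest group nearly every interval was shared, with 97.6% and 99.0% in deserts and 99.1% and 99.6% elsewhere in the FOXD2 libraries. Widths there still differed, with medians of 584.5 and 588.5 bp in deserts against 840 and 837 bp elsewhere in the FOXD2 libraries, while in the weakest group they were 250 and 253 bp against 250 and 251 bp.

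**Figure D3:**
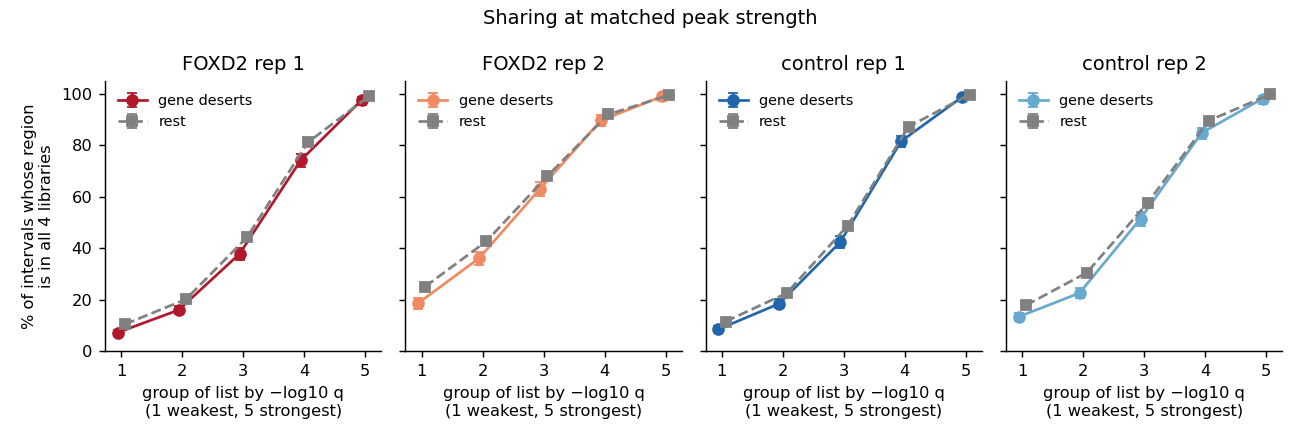
Sharing within groups of peak strength. Each panel is 1 library, its intervals cut into 5 equal groups by −log10 q (horizontal axis), with the percentage whose region was in all 4 libraries for deserts (coloured) and the rest (grey), and 95% Clopper-Pearson intervals. Desert points lie below those of the rest in each panel, with differences down to −7.94 percentage points.

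Sharing fell with distance from genes over the whole range. Of regions up to 10 kb from a protein-coding gene but outside it, 35.2% were in all 4 libraries, and 29.9% and 25.8% were in the bins from 10 to 50 and 50 to 100 kb. Among desert regions the share was 21.8% of 6337 from 100 to 200 kb, 17.4% of 4743 from 200 to 500 kb, 13.7% of 1398 from 500 to 1000 kb and 12.6% of 366 beyond 1000 kb. At the 100 kb limit, of the 100 members nearest to it, from 100011 to 100926 bp out, 21 were in all 4 libraries, and of the 100 regions just within it, from 99075 to 99993 bp, 27 were. These members included 6 present in both FOXD2 libraries only and 2 in both controls only, against 4 and 4 just within the limit.

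Desert regions held by both FOXD2 libraries but no control are called gained, and those held by both controls but no FOXD2 library are called lost. There were 522 gained desert regions (4.06%, 95% interval 3.73 to 4.42), where 3.89% of all regions were gained, and 600 lost ones (4.67%, 4.31 to 5.05), where 3.87% of all regions were lost. In the lists as deposited the gained share was close to that of all regions, and the lost share was above it by more than counting error. With all lists shortened to the length of the shortest, the balance turned, with 488 gained (5.02%, against 4.32% of all regions) and 465 lost (4.78%, against 3.86%). A further 1225 desert regions were in 1 FOXD2 and 1 control library. With 2 libraries a group, the spread between replicates bounds what these counts can carry: leaving out FOXD2 replicate 2 gave 2910 gained (24.3%, against 19.5% of all regions) and 819 lost desert regions (6.83%, against 5.93%). Leaving out control replicate 2 gave 760 gained (6.61%, against 6.18%) and 2559 lost (22.3%, against 17.0%). In cultures read in bulk, fewer cells with a site open and a site less open in each cell cannot be told apart.

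Gained and lost desert regions were weaker than those of all 4 libraries. These classes rest on the presence of a call, so their strength is not independent of their definition. Gained desert regions had a median −log10 q of 7.58 and 7.24 in FOXD2 replicates 1 and 2. Lost ones had 7.17 and 7.03 in control replicates 1 and 2. Outside deserts the values were alike, with 7.82 and 7.38 for gained and 7.26 and 7.03 for lost regions in the same libraries. Desert regions of all 4 libraries had medians of 16.0 and 12.5 in the FOXD2 libraries and 16.9 and 16.9 in the controls. Gained desert regions had a median width of 401 bp and lost ones 384 bp, with 611.5 bp for those in all 4 libraries and 238 bp for those in a single one. A region spans all its joined intervals, so its width can grow with the number of libraries that hold it. Regions of all 4 libraries were wider outside deserts, at 760 bp.

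Within deserts the gained share fell and the lost share rose from bin to bin, but their 95% intervals overlapped in each desert bin except the last. Nearer to genes there was no steady order. Up to 10 kb 3.58% were gained and 4.01% lost, from 10 to 50 kb 4.09% and 3.83%, and from 50 to 100 kb 4.26% and 4.07%. The bins were not redone with lists of equal length. From 100 to 200 kb 4.17% were gained and 4.34% lost, from 200 to 500 kb 4.15% and 4.76%, and from 500 to 1000 kb 3.86% and 5.44%. Beyond 1000 kb 7 regions (1.91%, 0.772 to 3.90) were gained and 23 (6.28%, 4.02 to 9.28) were lost. In that last bin 176 and 86 regions were present in FOXD2 replicates 1 and 2, against 216 and 175 in control replicates 1 and 2. FOXD2 replicate 2, the shortest list, was also the lowest there, and its part in the result was not tested.

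**Figure D4:**
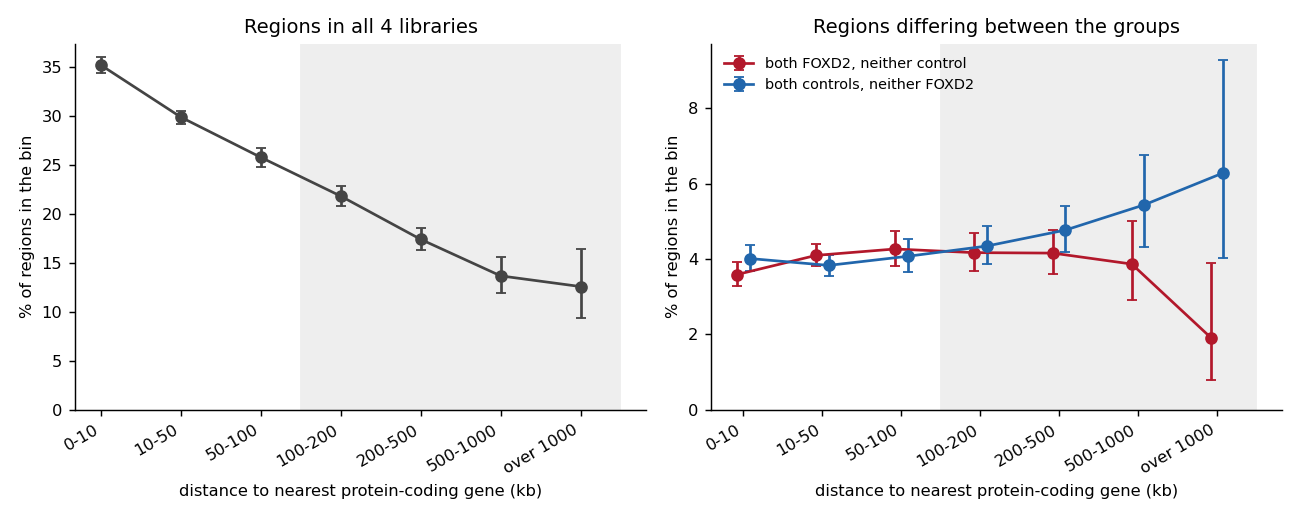
Regions by distance to the nearest protein-coding gene (horizontal axis, kb, regions outside genes only). The left panel gives the percentage in all 4 libraries, which falls to 12.6% beyond 1000 kb; the right panel gives gained (red) and lost (blue) percentages, 1.91 and 6.28% in the last bin. Bars are 95% Clopper-Pearson intervals and the grey band marks deserts.

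The 10 strongest gained desert regions lay in 8 deserts. They were ranked by the lower of their 2 within-list percentiles of −log10 q, and values are given for FOXD2 replicates 1 and 2, since neither control had a peak. The first (chr8:127041716-127042165) lay between LRATD2 and POU5F1B, 371 kb from the nearer gene, with −log10 q of 25.8 and 25.4. The same desert held 2 more of the first 10, one at 15.1 and 26.1 (chr8:127038653-127038943) and one at 15.6 and 18.6 across an end of CCAT1 (chr8:127218769-127219499). CCAT1 is a lncRNA gene known for high expression in colorectal cancer.

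Another gained region (chr8:59786720-59787295) lay 398 kb from the T cell factor gene TOX or its neighbour CA8, at 30.9 and 22.2. One at an end of the lncRNA gene LOC100507336 between SLC22A23 and PXDC1 (chr6:3592378-3592899) had 22.2 and 26.8. Both deserts of SOX9 were in the list. A region between SOX9 and SLC39A11 (chr17:72317413-72318131) had 21.8 and 16.4, and one between KCNJ2 and SOX9, 905 kb from the nearer gene (chr17:71085245-71085590), had 15.6 and 20.3. The remaining 3 lay between LMO4 and PKN2 (chr1:88311934-88312261), inside LINC01619 between DCN and the antiproliferative gene BTG1 (chr12:92034849-92035302), and beside OSR1, a developmental transcription factor gene (chr2:19187273-19187941).

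Among the strongest lost desert regions, given for control replicates 1 and 2 since neither FOXD2 library had a peak, the first lay inside LINC-PINT, a lncRNA gene known as a target of p53 (chr7:130999063-130999615), with −log10 q of 23.5 and 21.1. Next came one between ETV3 and FCRL5 (chr1:157369870-157370234), at 20.0 and 26.6, and one between the NOTCH ligand gene JAG1 and BTBD3 (chr20:11716187-11716575), at 20.0 and 19.7. A pair of lost regions lay 17 kb apart between AREG and BTC, which encode ligands of the EGF receptor. They had 18.3 and 23.7 (chr4:74618547-74618962) and 18.1 and 33.2 (chr4:74635518-74636046).

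One lost region lay 351 kb from KITLG, the KIT ligand gene, or DUSP6, a gene of an ERK phosphatase (chr12:88931588-88931907), at 18.3 and 22.1. Another lay inside MACC1-OT1, next to MACC1, a gene linked to metastasis in colon cancer (chr7:19944454-19945121), at 21.9 and 17.4. The remaining 3 lay between DPH6 and CDIN1 (chr15:36373593-36373914), CDC73 and KCNT2 (chr1:195345210-195345551), and ARRDC3 and the nuclear receptor gene NR2F1 (chr5:93162973-93163501). Their −log10 q ranged from 17.7 to 34.7 over both controls.

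The strongest regions of all 4 libraries stood at or above the 94.1 percentile of each list. A region of 1283 bp between YWHAZ and ZNF706 (chr8:101080059-101081341) had −log10 q of 82.5 and 70.1 with FOXD2 and 123 and 115 in the controls. The region across the start of the lncRNA gene LINC03011 (chr7:66493214-66494206) had 79.2 and 77.4 with FOXD2 and 110.3 and 116 in the controls, and the one at an end of LOC124902468 between RPS24 and ZMIZ1 had 80.9 and 75.9 against 98.0 and 89.1. In these 3 both FOXD2 values lay below both control values. How often this held over all shared regions was not counted, so it is not read as a trait of these sites. Shared regions outside deserts were ordered alike, with medians of 23.4 and 18.3 with FOXD2 and 26.6 and 25.5 in the controls. The region between SLC8A1 and PKDCC (chr2:41840505-41841551) went otherwise, with 115 and 48.9 in the FOXD2 libraries and 91.7 and 76.7 in the controls, so the groups overlapped. A −log10 q grows with depth, so its level at single regions was not compared between the groups by a test.

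The other 6 of the 10 strongest shared desert regions included sites beside LINC00390 and SMIM2-AS1, at the pseudogenes HSD17B7P2 and ZNF658B, inside LINC02964 and inside LINC00673. The widest desert region, 2351 bp (chr13:50123893-50126243), lay across ends of DLEU1 and DLEU2, lncRNA genes of a segment often deleted in chronic lymphocytic leukaemia. Its −log10 q was 42.2 and 40.6 with FOXD2 and 36.9 and 34.1 in the controls. Next in width came 2176 bp between VRK1 and BCL11B and 1808 bp beside MIR4472-2.

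Single deserts were then ranked by gained minus lost regions. The deserts were picked for this contrast, so their counts are a description with no test, to be read against the 7443 and 4933 desert regions present in FOXD2 replicates 1 and 2 and the 6866 and 6119 in control replicates 1 and 2. In 193 deserts there were gained but no lost regions, in 213 lost but no gained ones, in 142 both, and in 703 with a region neither.

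The desert between RUNX1, a transcription factor gene of blood and epithelium, and SETD4 on chromosome 21 (chr21:35149303-35934540) had 7 gained and 0 lost of 34 regions. A peak was present in 28 and 24 of them with FOXD2, against 14 and 13 in the controls. The gained sites were spread over 601 kb, from 129.6 to 476 kb from the nearer gene, and the strongest by the lower percentile (chr21:35614478-35615100) had −log10 q of 12.4 and 11.3 in FOXD2 replicates 1 and 2. The weakest had 3.39 and 4.03. Only 1 of the 7 lay in an annotated lncRNA gene, LOC100506403.

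The desert between BTG1 and PLEKHG7 on chromosome 12 (chr12:92245847-92602988) had 7 gained and 0 lost of 13 regions, with 12 and 10 present with FOXD2 and 2 and 4 in the controls. Its strongest gained site was 1010 bp wide (chr12:92445437-92446446), at 14.7 and 11.5. Of the 7, 3 lay inside LOC105369905 and 1 inside LOC105369902. One of them (chr12:92602471-92602930) was 100.059 kb from the nearest gene, just past the limit.

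The desert between LRATD2 and POU5F1B (chr8:126658479-127313446), on the far side of POU5F1B from MYC, had 7 gained and 2 lost of 41 regions, with 33 and 32 present with FOXD2 and 25 and 25 in the controls. One gained and 1 lost region lay in CASC21, and the gained region at CCAT1 stood beside a stronger peak at the gene's ends that all 4 libraries had. In the stretch between POU5F1B and MYC 9 regions were found, with 0 gained and 0 lost, and beyond MYC 2 were gained and 1 lost of 83. Between RNF144B and ID4, an inhibitor of DNA-binding factors, 6 were gained and 1 lost of 30, with 21 and 15 present with FOXD2 and 15 and 15 in the controls.

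Between SOX9 and SLC39A11 (chr17:72226417-72545948) 5 regions were gained and 1 lost of 50, with 31 and 31 present with FOXD2 and 23 and 24 in the controls. Of the gained ones 3 lay inside LINC00673, at −log10 q from 4.07 to 9.17, and the strongest was the site at 21.8 and 16.4 given above. The desert beside KLF5, a transcription factor gene of gut epithelium, on its KLF12 side had 1 gained and 0 lost of 19 regions, with 13 and 9 present with FOXD2 and 12 and 12 in the controls.

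On the other side, the desert between NYAP2 and IRS1, the insulin receptor substrate gene, on chromosome 2 (chr2:225803655-226631311) had 9 lost and 1 gained of 50 regions. A peak was present in 22 and 19 of them with FOXD2, against 34 and 33 in the controls. Within a stretch of 121 kb (chr2:226088201-226209027) lay 7 of the lost sites, 2 of them at LOC646736, and the strongest by the lower percentile (chr2:226118487-226118929) had −log10 q of 14.8 and 13.5 in control replicates 1 and 2. The gained region (chr2:226426412-226426738) had 9.21 and 6.70 in the FOXD2 libraries.

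Between KRR1 and PHLDA1, known as a marker of intestinal stem cells, 7 regions were lost and 0 gained of 43, with 21 and 13 present with FOXD2 and 25 and 23 in the controls. Of the 7, 6 lay inside LOC105369844, led by a 980 bp site (chr12:75714589-75715568) at 10.6 and 12.0 in control replicates 1 and 2. Between FOXL1, a forkhead gene of gut mesenchyme, and C16orf95 8 were lost and 2 gained of 59, with 26 and 21 present with FOXD2 and 36 and 28 in the controls. The lost sites there had −log10 q between 4.43 and 13.0.

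Between RPS24 and ZMIZ1 5 were lost and 0 gained of 60, with 27 and 22 present with FOXD2 and 32 and 29 in the controls. The wide desert between PCDH7, a protocadherin gene, and ARAP2 (chr4:31246801-35905403) also had 5 lost and 0 gained, of 47, with 22 and 13 present with FOXD2 and 32 and 23 in the controls. Its lost sites lay between 315 and 1341 kb from the nearer gene. In these 5 deserts, chosen for that contrast, both FOXD2 libraries lay below both controls, by 1 region at the least between PCDH7 and ARAP2. By chromosome, gained outnumbered lost desert regions on 17 (19 gained and 7 lost of 290) and 12 (41 and 29 of 646), among others. The same held on 6 (61 and 48 of 1010) and 21 (9 and 4 of 92). Lost outnumbered gained on 4 (36 and 62 of 1111), 7 (17 and 36 of 637) and 13 (12 and 28 of 446), among others. Over all regions 3.89% were gained and 3.87% lost.

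**Figure D5:**
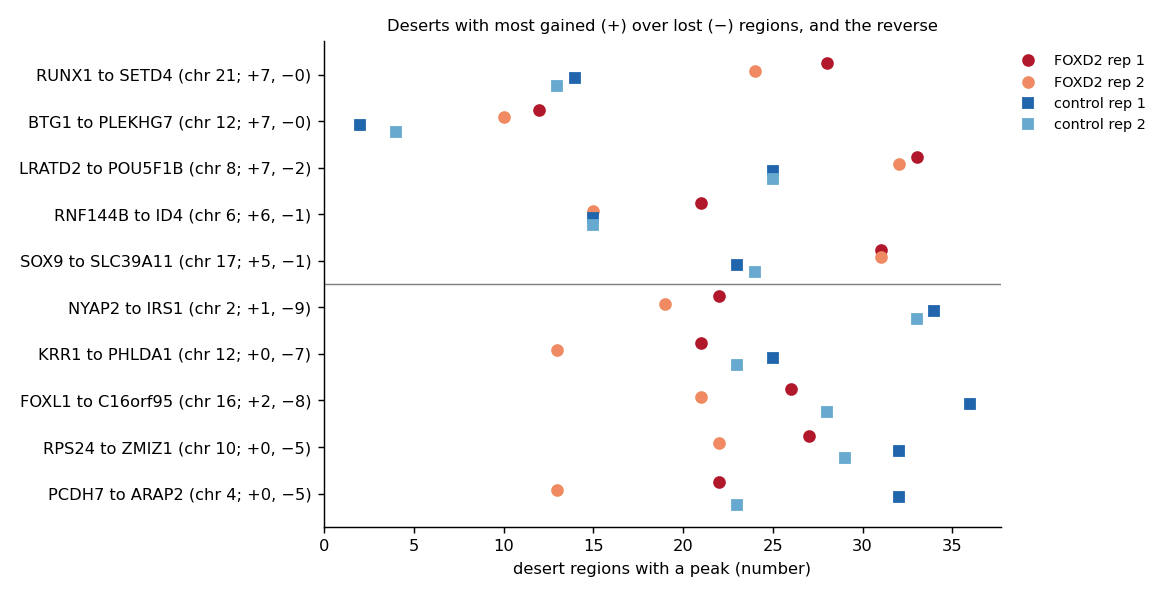
Deserts with the most gained over lost regions (upper 5) and the most lost over gained (lower 5). Each point is the number of the desert's regions present in 1 library (circles FOXD2, squares control), for example 28 and 24 with FOXD2 against 14 and 13 in the controls between RUNX1 and SETD4, and 22 and 19 against 34 and 33 between NYAP2 and IRS1. Numbers in brackets give the gained and lost regions that chose the deserts.

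Of the 12844 desert regions, 8158 (63.5%) had no non-coding gene within 1000 bp. Another 3420 (26.6%) lay inside a lncRNA gene, 750 (5.84%) lay within 1000 bp of a lncRNA gene end, and 516 (4.02%) were at another non-coding entry. Regions at lncRNA ends were in all 4 libraries in 30.3% of cases (95% interval 27.0 to 33.7), against 18.8% inside lncRNA genes (17.5 to 20.1) and 17.7% away from any non-coding gene (16.9 to 18.6). The share at lncRNA ends was thus nearer to the 34.1% of regions outside deserts. Gained and lost numbered 27 and 30 at lncRNA ends (3.6 and 4%) and 152 and 165 inside lncRNA genes (4.44 and 4.82%). They numbered 17 and 25 at other entries (3.29 and 4.84%) and 326 and 380 elsewhere (4.00 and 4.66%). Over all regions 3.89% were gained and 3.87% lost.

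By gene, 3837 lncRNA genes, 3025 pseudogenes, 185 miRNA genes, 366 antigen receptor segments and 250 other small RNA genes lay wholly in deserts. Of these 7663 genes 1695 had a region in the body or at an end. A peak at a gene end in all 4 libraries was found for 228 desert lncRNA genes (5.94%), against 4674 of 14086 lncRNA genes outside deserts (33.2%), which by the rule lie within 100 kb of a protein-coding gene or overlap one. In FOXD2 replicates 1 and 2, 430 and 326 desert lncRNA genes had a gene-end peak, and in control replicates 1 and 2, 417 and 383 had. Gene-end peaks gained with FOXD2 were found at 34 desert genes (0.444%), where 0.64% of all RefSeq non-coding genes gained one, and lost at 45 (0.587%), where 0.759% lost one. Here both libraries of 1 group, and none of the other, had a peak near either end of the gene. The peaks of the 2 libraries need not belong to the same region, and neighbouring genes can share one.

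The desert lncRNA genes with the most regions were long ones. MIR3667HG on chromosome 22 had 37 regions, with 0 gained and 1 lost, present in 20 and 9 cases with FOXD2 and in 23 and 12 in the controls. LINC02641 had 24 (2 gained, 0 lost), LOC105370504 had 24 (2 gained, 1 lost) and LINC00299 had 22 (1 gained, 0 lost). LOC107986178 had 19, with 0 gained and 2 lost, present in 11 and 8 cases with FOXD2 and in 13 and 17 in the controls. MIR3681HG also had 19, with 3 gained and 1 lost. LOC105370777 on chromosome 15 had 16 regions, with 4 gained and 0 lost, present in 15 and 9 cases with FOXD2 and in 6 and 4 in the controls. It also gained a gene-end peak, at −log10 q of 5.98 and 7.19. LOC105370003, LOC105373592 and LOC124904475, also with 16 regions each, had 0 to 2 gained and 0 or 1 lost. Beside these counts, 3.89% of all regions were gained and 3.87% lost.

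The strongest gene-end peaks of desert lncRNA genes after LINC03011 and LOC124902468 included that of LINC00680 and LOC101927293, which share a peak, with 61.6 and 52.6 with FOXD2 and 55.7 and 59.6 in the controls. LINC00662 on chromosome 19, 1411 kb from the nearest protein-coding gene, had 54.1 and 41.0 with FOXD2 and 58.8 and 61.7 in the controls.

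Of a list of 45 lncRNA genes known from cancer, 10 lay in deserts, and these had 15 regions summed over genes, 2 gained and 0 lost. PCAT2 and PRNCR1 overlap, so a region lying in both counts for each. Another 10 genes of the list, which do not lie wholly in deserts, held 132 desert regions, 10 gained and 6 lost. They include LINC-PINT, LINC00673, CASC21 and PVT1. Over all regions 3.89% were gained and 3.87% lost. MANCR, a lncRNA linked to mitosis and genome stability, had a peak at its start with FOXD2, at 7.54 and 7.44, and none in either control. Its other 3 regions included 2 of all 4 libraries. The window printed above held 1 match to each motif, the AP-1 letters TGAGTCA starting at base 125 and the forkhead letters GTAAACA at base 188. CCAT1 had 5 regions, with 4 and 5 present with FOXD2 and 2 and 3 in the controls, and its strongest gene-end peak was in all 4 libraries at 32.1 and 24.5 with FOXD2 and 37.0 and 37.2 in the controls.

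PRNCR1, a lncRNA gene of the same desert, had an end peak at 32.3 and 13.2 with FOXD2, none in control replicate 1 and 4.43 in control replicate 2. LINC00460, reported as raised in colorectal cancer, had its start peak in all 4 libraries, at 12.1 and 19.9 with FOXD2 and 21.0 and 22.8 in the controls. Desert regions of all 4 libraries were ordered alike, with medians of 16.0 and 12.5 with FOXD2 and 16.9 and 16.9 in the controls. Its printed window held 2 AP-1 matches, at bases 207 and 234, and no forkhead match. CASC19, PCAT2, LINC01194 and LINC02418 had 1 region each, found in 1 to 3 libraries, and PCAT1 and CYTOR had none.

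Of 18 miRNA host genes listed, 5 lay in deserts, with 26 regions, 3 gained and 1 lost, and another 2 genes partly in deserts held 8 desert regions, 0 gained and 0 lost. All of the gained and lost ones were in MIR3681HG, which had 19. MIR222HG, the host of the cell cycle regulators miR-221 and miR-222, had 5 regions, with 4 and 0 present with FOXD2 and 2 and 3 in the controls. Its gene-end peak was at 9.51 in FOXD2 replicate 1, absent from FOXD2 replicate 2, and at 17.7 and 7.92 in the controls. Of 19 developmental lncRNA genes found, 3 lay in deserts, with 31 regions, 2 gained and 2 lost. Another 5 partly in deserts held 48 desert regions, 3 gained and 2 lost. Beside these lists, 3.89% of all regions were gained and 3.87% lost. LINC00299 had 14 and 9 of its regions with FOXD2 and 9 and 9 in the controls, LINC01122 had 6 and 3 against 4 and 5, and LINC00922 had none.

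Regions at desert miRNA genes numbered 23, with 12 in all 4 libraries (52.2%), 0 gained and 3 lost, where 32.5% of all regions were in all 4 libraries, 3.89% were gained and 3.87% lost. The region beside MIR148A, whose product is known to target the DNA methyltransferase gene DNMT1, was 1297 bp wide (chr7:25950481-25951777) and lay 495 bp from the hairpin. Its −log10 q was 81.0 and 36.4 with FOXD2 and 54.8 and 69.1 in the controls, and the groups overlapped. The region over MIR138-1 (chr3:44114073-44114507) had 27.8 and 25.1 with FOXD2 and 22.6 and 27.1 in the controls. That over MIR587 (chr6:106784045-106784522) had 6.24 and 4.89 with FOXD2, below the 18.6 and 13.7 of the controls.

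The gene of miR-29a, a miRNA known to act on collagen genes, had a region 557 bp away (chr7:130875841-130876190), with no peak in either FOXD2 library and −log10 q of 5.18 and 8.13 in the controls. MIR548X2 had one 540 bp away (chr13:65966969-65967269), with no peak in either FOXD2 library and 13.2 and 15.2 in the controls. Its sequence belongs to a family with many near-identical copies. Of the 70 regions at antigen receptor segments, genes used by lymphocytes, 15 (21.4%) were in all 4 libraries, against 19.03% of all desert regions. Gained ones numbered 3 and lost ones 8, where 3.89% of all regions were gained and 3.87% lost. IGHD1-7 and IGHD6-6 had a gained peak, at 8.59 and 4.36 in FOXD2 replicates 1 and 2. Among the lost were those at TRAV10, TRAV8-6, TRAV18, TRAV41, TRBV6-5 and IGKV6D-21.

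Gene-end peaks gained at other named lncRNA genes included LINC02273 (17.9 and 10.2 in the FOXD2 libraries), whose printed window holds neither motif, LINC00900 (6.61 and 4.06), LINC02541 (5.43 and 4.46), LINC02409 (3.39 and 3.31) and CDRT8 (7.81 and 7.44). Among pseudogenes the strongest gained, by the lower value, were at LOC100533732 (13.1 and 13.3) and ARL2BPP4 (22.4 and 11.7). Lost ones included LINC01626 (8.43 and 4.43 in the controls), whose window holds neither motif and has a GC content of 67.7%, LETR1 (4.54 and 8.92), LINC02360 (7.03 and 7.96), LINC00997 (7.17 and 5.26) and LOC105374914 (20.0 and 13.0). By comparison the GC content of the MANCR window was 36.7%.

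RefSeq promoter windows were at hand for 2375 non-coding genes in deserts. A peak overlapped 95 of them in all 4 libraries, 91 in 1 to 3 libraries and 2189 (92.2%) in none, with 146 and 126 windows open with FOXD2 and 143 and 130 in the controls. Windows open in all 4 libraries had a median GC content of 55.0%, against 41.7% for those never open and 58.3% over all 27195 promoters of the table. The AP-1 letters TGACTCA, on either strand, were in 10 of the 95 (10.5%), in 10 of the 91 (11.0%) and in 6.30% of those never open, where 4.89% of all promoters held them. The forkhead letters TGTTTAC were in 5 of the 95 (5.26%), in 5 of the 91 (5.49%) and in 6.08% of those never open, where 3.41% of all promoters held them. These matches are a description of letters, and the open desert regions themselves were not searched.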

How the data were processed

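ATAC-seq peak lists of 2 FOXD2 and 2 control libraries of HCT116 cells were used, 1 list per library and none pooled. Per the submitters' processing notes, the authors used MACS2 2.2.7.1, Bowtie2 2.3.4.1, cutadapt 3.4, bedtools and Picard with the hg38 build. Not given in the sources used here are their settings and any Tn5 shift of read ends. For each interval the authors deposited a fold enrichment (a ratio to local background), a −log10 p and a −log10 q of the summit, the summit position, and a score that was not used. The smallest deposited −log10 q was 2.00 to 2.03. Read depth is unknown, and no read counts were used, so presence of a called interval was the readout.

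Intervals were merged with own code in Python 3.11.15 (numpy 2.4.6, pandas 2.3.3, scipy 1.17.1), checked against bedtools 2.31.1 and tested on simulated data. Between 0.208% and 0.251% of each list lay on other contigs and was left out. Gene positions were those of RefSeq on GRCh38.p14, which shares its chromosomes with hg38, with 153 protein-coding entries on other scaffolds left out. The table has no strand or exons, so a gene end is either end of the gene within 1000 bp, and exon, intron and UTR are not given. Promoter windows, 1 per gene, and miRNAs came from RefSeq sequence tables. No genome was at hand, so sequences of the desert regions are not printed.

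Shares carry 95% Clopper-Pearson intervals, which cover counting error only. Single values per library were compared with exact permutation tests, whose smallest p is 0.33 for 2 against 2 libraries and 0.13 for 4 sign flips. Alternatives were a −log10 q of 5 or more, summit windows of 250 bp to each side, deserts at 50 or 200 kb or away from every RefSeq gene, lists of equal length, leaving out each library, and a replicate block. Regions, deserts and genes were named by rank, as the text gives it. The members, gene lists and tests were chosen with earlier results of these data known.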

Additional observations from a re-analysis of the deposited data

How the results depend on the processing

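Of 61 values recomputed under 11 alternatives, 35 counted as unchanged. For the FOXD2 minus control difference in the desert share this means direction alone, as it ran from −1.05 to −0.0819 among them. For counts the limit was wide, as 9560 desert regions with −log10 q of 5 or more, against 12844, counted as unchanged. So did 760 gained without control replicate 2, against 522, and 819 lost without FOXD2 replicate 2, against 600. For the difference in sharing, unchanged means within counting error of the main value. Deserts set at 50 kb, at 200 kb or away from every RefSeq gene held 20562, 6507 and 990 regions, of which 4433, 1062 and 135 were in all 4 libraries, 851, 258 and 37 were gained and 914, 325 and 52 were lost. The share in all 4 libraries, desert minus rest, was −15.0 percentage points, and under those 3 limits it was −13.1, −17.1 and −19.0. It was −16.3 with peaks of −log10 q 5 or more and −15.9 with lists of equal length. Lists of equal length gave 488 gained and 465 lost regions, so that gained ones came out ahead.

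Leaving out each library in turn gave 760 to 2910 gained and 819 to 2559 lost desert regions, as the definition then rests on fewer libraries, and −16.0 to −15.2 percentage points for sharing. The FOXD2 minus control difference in the desert share of the lists ran from −1.05 to 0.322 percentage points, and it reversed to 0.322 without FOXD2 replicate 2. With the replicate number as a block it was −0.365 (pairs 0.159 and −0.889, exact sign-flip permutation p = 1, where 0.5 is the smallest for 2 pairs); the labels do not say that numbers pair the libraries. With 2 libraries a group and unknown depth, absence of a call is not absence of open chromatin.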
